A study of Mus musculus with 8 samples.

Results

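The regions described here are short stretches of the mouse genome with Sono-seq signal, a readout of open chromatin, in the hippocampus. Whether each is open was not checked by another measure. The regions stood out strongly in only 4 or 5 of 8 libraries. They were picked by the deposited region table, which gives each region a number of carriers and a mean z score (the authors' own peak height, scaling not stated). A carrier is a library with a listed peak at a z of at least 30 in the region. Regions with 4 or 5 carriers, a span below 700 bp and a mean z of at least 60 were taken, and 642 of the 11304 deposited regions (5.68%) met all of these conditions. Of the 5325 regions with 4 or 5 carriers, 2381 were narrow enough and 1180 were strong enough. Carriers, span and mean z chose the regions, so these values are given as a description, with no test.

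In Sono-seq, crosslinked chromatin is sheared by sound and sequenced without an antibody, and reads collect where the fibre breaks easily. Open promoters, enhancers and insulator sites are known to give such signal, often as sharp peaks, while broad signal is known from extended open domains. Repeated sequence is also known to give signal. In the hippocampus, neurons are known to switch on early response genes within minutes of new learning, and the regulatory sites of such genes are among those that can open.

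The 8 libraries were made from the hippocampus of male C57BL/6J mice aged 2 months, and the labels number 4 replicates per group without saying whether each is 1 mouse. Conditioned mice had 3 days of handling and then a single foot shock (2 s, 1.5 mA) in a chamber, and the tissue was taken 30 min later. Control mice had the handling but no training and were dissected at the matching hour. Tissue with all its cell types was used, so a site open in fewer cells and one less open in each cell cannot be told apart. Positions are those of the deposited mm9 files, whose starts may count from 0 or from 1. Gene names, exon and promoter classes and base sequence were not analysed here, since no mm9 genome or annotation was at hand.

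Total counts over the deposited regions ranged from 36786183 to 83233550 per library, and most of them fell in 50 very high regions. Outside these 50, controls 1 to 4 had 2217162, 8166103, 2013469 and 5675018 counts, while conditioned libraries 1 to 4 had 6997811, 4503240, 10084037 and 14605841. Control replicates 1 and 3 and conditioned replicate 2 thus had the fewest reads for ordinary regions. Test counts, and the fold changes printed for named regions in which these libraries were extreme, are also given without them.

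The span of a deposited region turned out to be mostly margin. In all 11304 regions the start lay 200 bp before the first peak at z of at least 30, and the end lay 200 bp after the last one. The deposited mean z equalled the mean over all such peaks in all 11304 regions (within 1e-06). What the rule limits by span is therefore the stretch from the first to the last strong peak over all libraries. It depends on the length and number of the peaks as well as on how closely different libraries sit together. In the 642 narrow strong regions this stretch had a median of 101 bp (0 to 297 bp), against 458 bp over all regions. The strong peaks fell within 50 bp in 110 of the 642 and within 100 bp in 320. Peaks are listed in steps of 50 bp, so a distance of 50 bp is at the resolution of the lists. The stretch is taken between listed positions and does not count the length of the last step.

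Most of these regions were only a little above the limit on z. The mean z was between 60 and 70 in 472 of the 642 and between 70 and 80 in 140, with 25 regions between 80 and 100 and 5 above. Their median was 65.9, against 70.5 in the 951 narrow strong regions carried by 6 to 8 libraries. Just inside the limit lay chr10:57251767-57252308 and chr14:63783326-63783780, at 60.001 and 60.006. Just outside lay chr17:3314143-3314660 and chr8:124984322-124984889, at 59.997 and 59.98. The widest accepted regions were chr17:35561610-35562307 (697 bp) and chr15:78258705-78259401 (696 bp). At 700 bp, chr10:119638201-119638901 and chr11:121248979-121249679 were left out with a mean z of 60.7 and 66.2.

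The carriers were nearly always the same few libraries. Conditioned replicates 4, 3 and 1 carried 637 (99.2%), 615 (95.8%) and 600 (93.5%) of the 642 regions. Control replicate 2 followed with 556 (86.6%) and control replicate 4 with 347 (54.0%). Conditioned replicate 2 carried 136 (21.2%), control replicate 1 carried 48 (7.48%) and control replicate 3 carried 30 (4.67%). Over all deposited regions the same 3 libraries carried 58.6%, 24.3% and 25.5%. Those include regions of 6 to 8 carriers, so lower carriage in a set limited to 4 or 5 follows in part from the rule. In the wide weak regions of 4 or 5 carriers the 3 libraries carried 25.9%, 28.4% and 13.6%. The order of the libraries by regions carried was that by counts outside the 50 highest regions, except that conditioned replicate 1 and control replicate 2 changed places. The counts outside the 50 highest regions move with carriage in this way, and their part in the result was not tested. Total counts followed carriage less closely. Control replicate 1 had 66135693 in total, above control replicate 2 (63478445) and control replicate 4 (57580689).

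**Figure D1:**
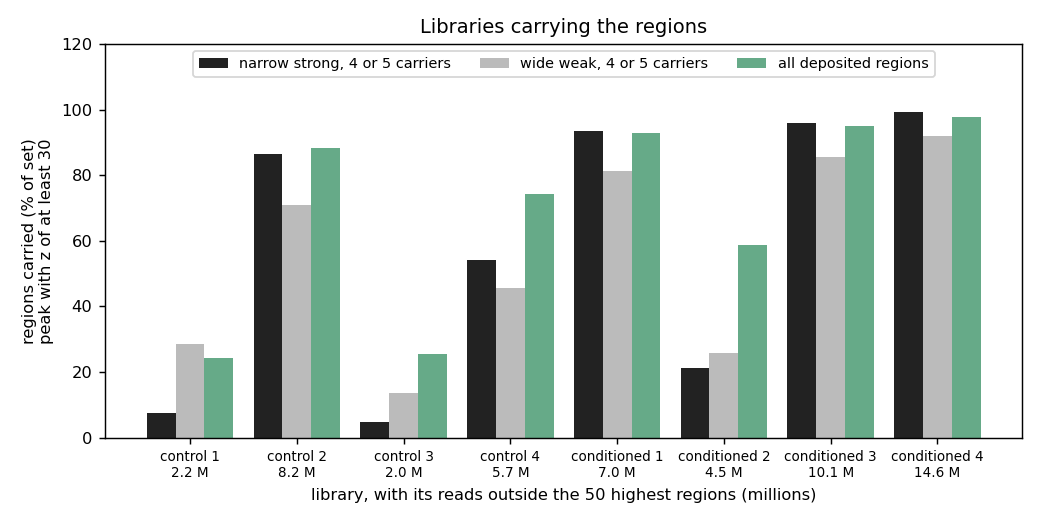
Percent of regions carried (a listed peak at z of at least 30) by each library, for the 642 narrow strong regions (black), the 2406 wide weak regions of 4 or 5 carriers (light grey) and all 11304 regions (green). Below each library is its number of reads outside the 50 highest regions. The 3 libraries with the fewest such reads carry 4.67% to 21.2% of the narrow strong regions, and the other 5 carry 54.0% to 99.2%.

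A few combinations of libraries made up most of the set. In 258 regions (40.2%) the carriers were control replicates 2 and 4 with conditioned replicates 1, 3 and 4, which are the 5 libraries with the most reads outside the 50 highest regions. In 142 regions (22.1%) control replicate 4 was missing from this list. Among the other 4683 regions of 4 or 5 carriers, whatever their span and z, the same combinations held 23.0% and 16.7%. The third combination, with all 4 conditioned libraries and control replicate 2, had 61 regions. Of the 642, 448 were carried only by libraries among those 5, and 194 (30.2%) by at least 1 of control replicates 1 and 3 and conditioned replicate 2.

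**Figure D2:**
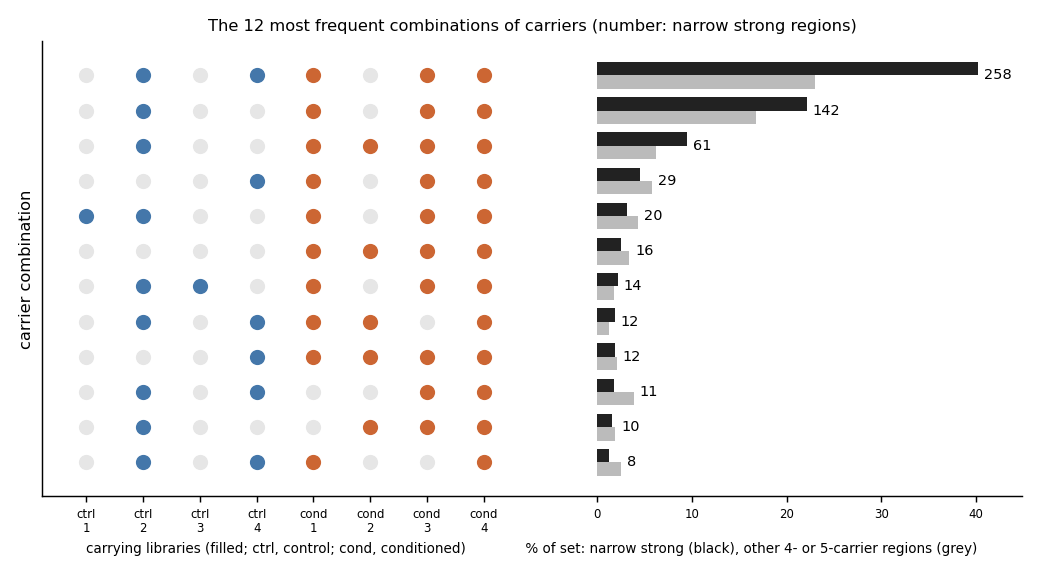
The 12 most frequent combinations of carriers among the 642 narrow strong regions. Filled dots mark the carrying libraries (blue, control; orange, conditioned). Bars give each combination's percent of the narrow strong regions (black, with their number) and of the other regions of 4 or 5 carriers (grey). The first 2 combinations hold 40.2% and 22.1% of the narrow strong regions.

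By group, conditioned carriers outnumbered control carriers in 609 of the 642 regions (94.9%). In 29 regions the groups had equally many carriers, and in 4 the controls had more. The share was 74.2% in the wide weak regions of 4 or 5 carriers and 81.0% over all regions. In these sets 502 and 1910 regions had equally many carriers, and the controls had more in 119 and 243. Ties depend on the number of carriers. Of the 642 regions, 401 had 5 carriers and could not tie, while a region carried by all 8 libraries must. The shares of the sets thus differ in part by construction. The most frequent split was 2 control and 3 conditioned carriers (317 regions), followed by 1 and 3 (195 regions) and 1 and 4 (81 regions). Of the 3 libraries that rarely carried these regions, 2 were controls, and group and depth cannot be told apart in these numbers.

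Peak height followed the same order. Over the regions with a listed peak, the median of the highest z was 18.4, 53.9, 16.4 and 33.7 in controls 1 to 4 and 50.8, 25.3, 72.7 and 88.5 in conditioned libraries 1 to 4. This order is exactly that of the counts outside the 50 highest regions. Conditioned replicate 4 had the highest peak of all 8 libraries in 344 regions and conditioned replicate 3 in 167, against 1 in control replicate 1 and 8 in control replicate 3.

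**Figure D3:**
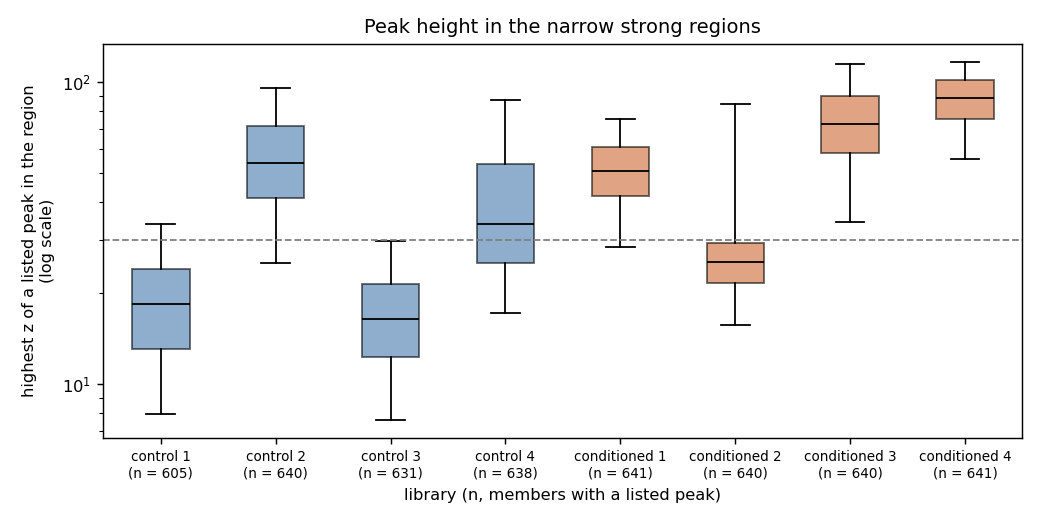
Highest z of a listed peak in each of the 642 narrow strong regions, by library (log scale; blue, control; orange, conditioned). Boxes give the median and quartiles, whiskers the 5th and 95th percentiles, and the dashed line the carrier limit of 30. The medians of control replicates 1 and 3 and conditioned replicate 2 (18.4, 16.4 and 25.3) lie below the line and the other 5 above it.

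A library that did not carry a region usually still had a peak there. Among the 2167 pairs of a region and a library that did not carry it, 2107 (97.2%) had a listed peak (z of at least 5), and 60 had none. In 548 of these pairs the peak had a z of 25 to 30, in 572 one of 20 to 25, in 837 one of 10 to 20, and in 150 one below 10. All 8 libraries had a listed peak in 587 of the 642 regions (91.4%), beside 95.1% of all regions. With a limit of 20 instead of 30, the regions had a median of 6 libraries over it, and 555 (86.4%) had 6 or more. The weak peaks also sat near the strong ones. Of the 2107, 1793 (85.1%) lay within 100 bp of the middle of the strong peaks, at a median of 30 bp, in regions that reach at least 200 bp to either side. The share was 91.5% in conditioned replicate 2 and 90.5% in control replicate 3, and 70.02% in control replicate 1. Control replicate 1 also had 37 of the 60 missing peaks.

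The strong peaks of this set were of the shortest kind the lists hold. A single step of 50 bp made up 76.7% of the highest peaks in carriers, compared with 44.5% in the wide weak regions, 64.8% in the narrow strong regions of 6 to 8 carriers and 47.9% over all regions. Span entered the rule, so short peaks follow in part from the selection. The regions were spread over all 19 autosomes. Chromosome 11 had the most (61) and chromosome 16 the fewest (18). As a share of the regions on the same chromosome they ranged from 3.67% on chromosome 8 to 7.67% on chromosome 19. Among neighbouring narrow strong regions, 7 pairs were under 10 kb apart and 42 under 100 kb. The nearest other deposited region of any kind was a median of 35.5 kb away, against 48.5 kb over all regions, and in 125 of the 642 (19.5%, beside 16.7% of all regions) it was under 10 kb away. No strong peak of any library outside the region lay within 5 kb in 213 (33.2%, beside 34.4%).

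Read counts gave a milder picture of the difference between libraries than carriage did. The median count was 94.5, 464.5, 67.5 and 232 in controls 1 to 4 and 385, 162, 710.5 and 931.5 in conditioned libraries 1 to 4. After scaling to the bulk of regions (CPM, counts scaled to library size with TMM factors), the medians were 4.31, 5.03, 3.60 and 3.90 CPM in controls and 4.75, 3.68, 6.14 and 5.56 CPM in conditioned libraries. The median over all regions was between 6.03 and 6.47 CPM in every library. The narrow strong regions thus had low to middling counts per region. Their median percentile among all regions was 26.9 to 43.0 in 7 libraries and 50.3 in conditioned replicate 3. These values are not scaled to span, which the rule limited. The median span was 501 bp in this set, against 858 bp over all regions. The narrow strong regions of 6 to 8 carriers ranked higher in every library (40.6 to 66.8). The wide weak regions had medians of 8.32, 3.81, 4.59 and 3.49 CPM in the controls and 4.22, 3.68, 3.52 and 2.82 CPM after conditioning. Per region, they were above the narrow strong regions in control replicates 1 and 3, equal in conditioned replicate 2 and below in the other 5. Their median span was 1250 bp, so these medians do not compare signal over equal lengths.

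The conditioned and control libraries were then compared region by region, to ask whether these sites differed in accessibility 30 min after training. The test was edgeR's quasi-likelihood test over all 11304 regions. All 642 regions passed the count filter, which removed 0 regions. No region passed at an adjusted p below 0.05 (0 of 642, beside 0% of all regions, and a smallest adjusted p of 0.605). At an unadjusted p below 0.05 there were 47 of the 642 (7.32%), beside 7.79% of all regions, a share near the background in this fit. Of these 47, 29 (4.52%, beside 1.76%) had higher and 18 (2.80%, beside 6.03%) had lower values in conditioned libraries. DESeq2's Wald test called 2 of the 642, beside 0.354% of all regions, both with higher values in conditioned libraries. The split is read with care, because the rule asks for uneven carriage over the same libraries and most carriers were conditioned ones. With region totals in place of TMM factors it became 157 higher (24.5%, beside 9.65%) and 5 lower (0.779%, beside 0.345%). Without control replicate 1 the count was 82 (12.8%, beside 9.50% of all regions), 56 of them higher (8.72%, beside 3.75%) and 26 lower (4.05%, beside 5.75%). With control replicates 1 and 3 left out together it was 112 (17.4%, beside 8.38%), 65 higher (10.1%, beside 3.34%) and 47 lower (7.32%, beside 5.03%). Without these and conditioned replicate 2 it was 118 (18.4%, beside 10.3%), 73 higher (11.4%, beside 3.61%) and 45 lower (7.01%, beside 6.71%). In these fits the share of narrow strong regions was above that of all regions, mainly on the higher side, and still none passed the adjusted test. Without 1 of the other libraries the shares lay on both sides of those of all regions. Without control replicate 2, 3 or 4 they were 8.10% (beside 9.91%), 6.07% (beside 5.94%) and 6.23% (beside 10.4%). Without conditioned replicate 1, 2, 3 or 4 they were 7.94% (beside 8.74%), 5.45% (beside 4.65%), 6.54% (beside 5.93%) and 7.32% (beside 4.95%). The narrow strong regions were chosen by carriage over the same libraries, so nothing is read from these shares about conditioning.

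The fold changes were centred a little above 0. The median log2 fold change of the 642 regions was 0.18 (5th to 95th percentile -1.01 to 1.24; median SE 0.54), against -0.05 over all regions. It was above 0 in 403 regions (62.8%, beside 46.4%). The 951 narrow strong regions of 6 to 8 carriers had a median of 0.12, and the 2406 wide weak regions one of -0.53. With region totals alone, all regions shifted to 0.75 and the narrow strong ones to 0.98, so the gap between the medians stayed at 0.23. Without 1 library the median of the 642 ranged from 0.07 (without conditioned replicate 3) to 0.31 (without control replicate 2), and without control replicates 1 and 3 and conditioned replicate 2 it was 0.17, against -0.03 over all regions. Regions are not replicates, and the medians carry no test. The rule chose regions by strong peaks, and conditioned carriers outnumbered control carriers in 609 of the 642, so these fold changes are not independent of it.

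**Figure D4:**
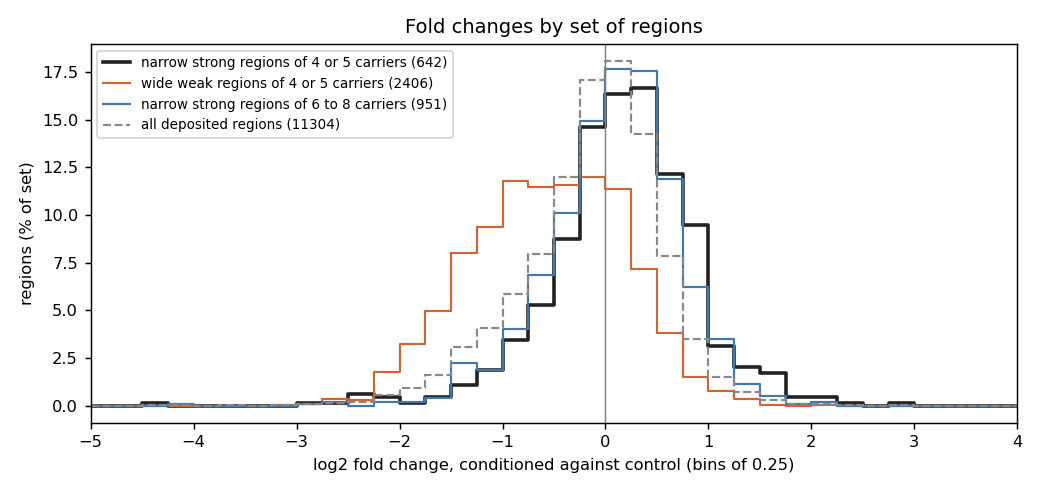
Log2 fold changes of conditioned against control libraries in bins of 0.25, as percent of each set: narrow strong regions of 4 or 5 carriers (black), wide weak regions of 4 or 5 carriers (orange), narrow strong regions of 6 to 8 carriers (blue) and all regions (dashed). The medians are 0.18, -0.53, 0.12 and -0.05.

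The groups did not overlap in 13 of the 642 regions (2.02%, beside 2.40% of all regions). In 11 of them conditioned values were higher (1.71%, beside 1.50%) and in 2 lower (0.312%, beside 0.902%). In the 5 libraries without control replicates 1 and 3 and conditioned replicate 2, the groups did not overlap in 188 (29.3%, beside 26.6%), with 144 higher (22.4%, beside 14.4%) and 44 lower (6.85%, beside 12.2%). Groups of fewer libraries separate more readily, and the share over all regions rose as well. The regions were chosen by carriage over the same libraries, so the split into higher and lower is not independent of the rule. Nothing is read from it about conditioning. The 5 regions with the smallest p on each side are described by their values, none of which passed. Their small p is what chose them.

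On the higher side, chr15:102767355-102767919 had peaks with a z of 6.56, 36.1, 5.47 and 23.1 in controls 1 to 4 and of 36.3, 128, 46.99 and 84.8 in conditioned libraries 1 to 4. Its counts were 27, 238, 12 and 126 in controls and 246, 1242, 1051 and 1013 in conditioned libraries. After scaling, the CPM values were 1.23, 2.58, 0.641 and 2.12 against 3.04, 28.2, 9.09 and 6.05. All conditioned libraries were above all controls, although conditioned replicate 1 was only just so, and replicate 2 held 53.3% of the summed CPM. This gave a log2 fold change of 2.79 (SE 0.68; edgeR adjusted p = 0.605), 1.86 without conditioned replicate 2 and 1.35 in the 5 libraries. DESeq2 gave 2.79 with an adjusted p of 0.0268.

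At chr14:35032880-35033377 the counts were 37, 169, 52 and 132 in controls and 335, 953, 1130 and 903 in conditioned libraries. The CPM values of 1.69, 1.83, 2.78 and 2.22 against 4.13, 21.6, 9.77 and 5.39 did not overlap, and conditioned replicate 2 was again the highest. Its peak there was weak all the same, with a z of 14.5, while conditioned replicates 1, 3 and 4 had 49.2, 105 and 85.7. Conditioned replicate 2 thus had the most CPM without being counted as a carrier. The log2 fold change was 2.27 (SE 0.56; edgeR adjusted p = 0.605), and 1.60 without conditioned replicate 2. The DESeq2 value was 2.24 (adjusted p = 0.0313).

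The third region, chr17:47547157-47547710, was the most even of the 5. Its CPM was 5.74, 2.98, 2.56 and 4.53 in controls and 10.9, 15.3, 11.02 and 9.42 in conditioned libraries, with no overlap. The log2 fold change was 1.56 (SE 0.43; edgeR adjusted p = 0.605). Its carriers were control replicate 4 (z 30.7) and conditioned replicates 1, 3 and 4 (z 61.3, 76.2 and 103), while control replicate 2 missed the limit with a z of 29.6.

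In the other 2 the groups overlapped. At chr10:119913929-119914408, which lies 578 bp from the next deposited region, the CPM was 3.28, 1.84, 1.49 and 0.757 against 3.59, 13.6, 9.10 and 2.55 (log2 fold change 1.97, SE 0.63, and 1.47 without conditioned replicate 2). At chr9:20877485-20877986 it was 9.48, 4.83, 3.63 and 4.81 against 6.54, 28.1, 26.3 and 7.12 (1.58, SE 0.54, and 1.23 without conditioned replicate 2). Conditioned replicates 2 and 3 were the high libraries in each, and conditioned replicates 1 and 4 lay close to the controls.

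On the lower side, chr15:51822396-51822953 was the only one of the 5 whose groups did not overlap. Its CPM was 6.84, 9.58, 5.61 and 16.7 in controls and 3.02, 3.91, 3.001 and 4.35 in conditioned libraries, a log2 fold change of -1.44 (SE 0.47; edgeR adjusted p = 0.605). Its carriers went the other way. They were control replicate 4 and conditioned replicates 1, 3 and 4, since controls 1 to 3 missed the limit with a z of 27.3, 25.8 and 29.1. The number of carriers and the scaled counts therefore ordered the groups differently at this site.

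The groups overlapped in the other 4, in which 1 to 3 control libraries were high. At chr7:52695610-52696156, where control replicate 2 was the lowest of all 8 libraries, controls had 8.84, 1.27, 24.6 and 12.03 CPM and conditioned libraries 2.16, 1.41, 3.96 and 3.82 CPM (log2 fold change -2.03, -1.40 without control replicate 3 and -1.02 in the 5 libraries). At chr12:11444677-11445294 the high libraries were control replicates 2 and 4, with 6.49 and 12.1 CPM, while control replicates 1 and 3 (1.23 and 1.33 CPM) lay among the conditioned ones (0.370 to 2.27 CPM). Its log2 fold change was -2.19, and -1.41 without control replicate 4. At chr5:124459577-124460257 control replicate 4 alone was high, with 22.95 CPM against 1.49 to 3.45 CPM in the other controls and 0.510 to 2.75 CPM in conditioned libraries. Its log2 fold change of -2.35 became -0.65 without that library.

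**Figure D5:**
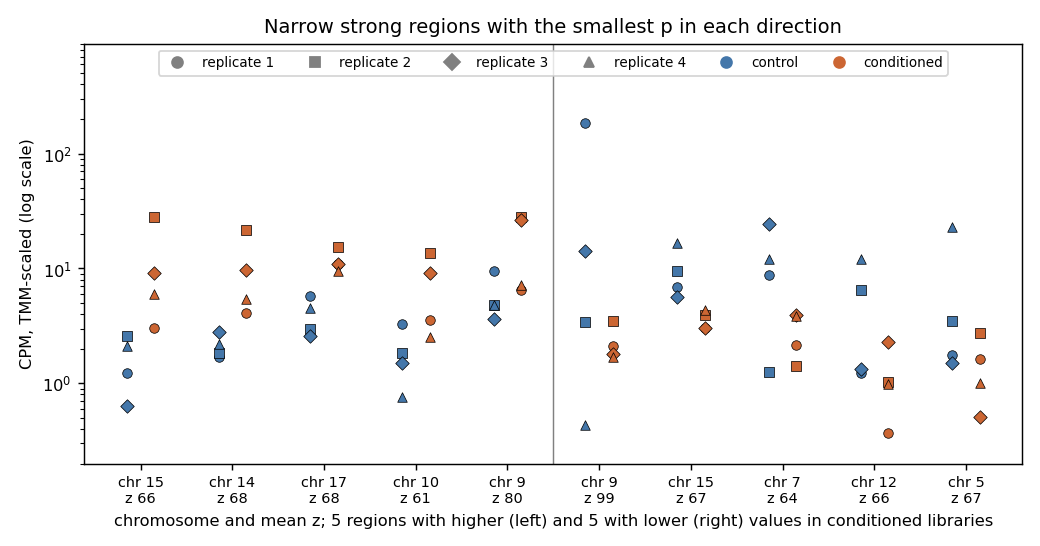
CPM (TMM-scaled, log scale) of each library in the 5 narrow strong regions with higher values and the 5 with lower values in conditioned libraries that had the smallest p, labelled by chromosome and mean z. Colours give the group and symbols the replicate. Groups do not overlap in the first 3 regions on the left and in the second on the right, and none of the 10 passed the adjusted test.

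The remaining region of the lower side, chr9:36723485-36723886, was also one of the 8 with the highest mean z (99.4), and it was made by 1 library. The counts were 4018, 316, 268 and 26 in controls 1 to 4 and 172, 153, 210 and 286 in conditioned libraries 1 to 4. After scaling, control replicate 1 had 183 CPM, or 87.0% of the summed CPM, the next was control replicate 3 with 14.3 CPM, and the other 6 had 0.438 to 3.47 CPM. The listed positions of all strong peaks lay within 1 bp, a distance below the 50 bp step of the lists. Their z was 251 in control replicate 1, 55.1 in control replicate 3, 39.2 in conditioned replicate 2 and 52.1 in conditioned replicate 4. Control replicates 2 and 4 and conditioned replicate 3, which carry most regions of the set, had no listed peak. The log2 fold change of -4.47 (SE 1.22) became -1.41 without control replicate 1, 0.22 against control replicates 2 and 4 alone and -0.062 in the 5 libraries.

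A region on chromosome 13 stood far above the rest of the set. At chr13:104995081-104995516 the mean z was 1324, and the next region had 106. It was the only 1 of the 642 among the 50 regions with the most counts. Its peaks had a z of 1609 and 1814 in control replicates 1 and 3 and of 1956, 832 and 411 in conditioned replicates 2, 3 and 4. Their listed positions lay within 35 bp, less than 1 step of the lists. Control replicates 2 and 4 and conditioned replicate 1 had no listed peak there, although they had 2033, 11562 and 1578 counts. The other 5 had 90981 and 107112 counts in control replicates 1 and 3 and 123855, 27591 and 7299 in conditioned replicates 2 to 4. In CPM the libraries ran from 19.5 to 5719, with the highest values in control replicates 3 and 1 and conditioned replicate 2. These were the libraries that rarely carried the other regions. The groups overlapped (log2 fold change -1.69, SE 1.41), and the estimate was -4.65 without conditioned replicate 2, 2.84 against control replicates 2 and 4 alone and -0.12 in the 5 libraries.

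The other 6 regions of highest mean z had moderate counts. In 4 of them (chr12:55757255-55757777, chr5:37221493-37221979, chr2:57090471-57091021 and chr9:31193535-31193985) the carriers were control replicates 2 and 4 and conditioned replicates 1, 3 and 4. At the first, the z was 146 and 88.9 in control replicates 2 and 4 and 73.4, 91.3 and 129.6 in conditioned replicates 1, 3 and 4. Control replicate 3 and conditioned replicate 2 had a z of 29.3 and 29.4 there, just under the limit, and control replicate 1 had 16.7. Its CPM averaged 13.4 ± 8.29 over the controls and 9.38 ± 3.40 over conditioned libraries (SD, n = 4 per group), which overlap. At chr5:37221493-37221979 the means were 10.1 ± 5.26 and 10.1 ± 6.37 CPM (SD, n = 4 each), with no difference beyond the spread. At chr2:57090471-57091021 they were 14.05 ± 5.83 and 8.20 ± 3.25 CPM (SD, n = 4 each), and conditioned replicate 2 was the lowest library (3.36 CPM). Its log2 fold change of -0.78 (SE 0.45) became -0.52 without conditioned replicate 2 and -0.84 in the 5 libraries. At chr9:31193535-31193985 control replicate 4 held 32.8 CPM against 2.77 to 10.4 CPM in the other 7.

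The fifth, chr10:128180829-128181260, had the listed positions of its strong peaks within 31 bp, less than 1 step of the lists. Its z was 164 in conditioned replicate 3, 108 in conditioned replicate 4, 96.7 in control replicate 2 and 37.1 in conditioned replicate 1. Control replicate 4 and conditioned replicate 2 followed at 26.1 and 26.03. Conditioned replicate 3 also had the most CPM (20.5, against 1.90 to 10.7 in the others), and the log2 fold change of 0.84 (SE 0.64) became 0.12 without it. The sixth, chr14:47407635-47408176, was carried by all 4 conditioned libraries (z 70.4, 98.3, 115 and 102) and by control replicate 4 (z 63.6), and control replicate 2 missed the limit with 27.8. It averaged 5.98 ± 1.53 CPM over the controls and 14.01 ± 10.9 CPM over conditioned libraries (SD, n = 4 per group). Conditioned replicate 2 had 30.2 CPM, and the log2 fold change of 1.22 (SE 0.50; edgeR adjusted p = 0.608) became 0.52 without it and 0.26 in the 5 libraries.

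Regions carried by a whole group and not by the other were rare. All 4 conditioned libraries and no control carried 16 of the 642 regions (2.49%, beside 3.37% of the other regions of 4 or 5 carriers), and no region had the reverse pattern. In these 16 the median z was 45.1, 53.1, 77.6 and 72.8 in conditioned libraries 1 to 4 and 20.4, 26.3, 13.4 and 24.2 in control replicates 1 to 4. At least 1 control had a peak at z of at least 20 in each of the 16, and the CPM of the groups did not overlap in 1 of them. Their log2 fold changes were all above 0 (0.30 to 1.93, median 0.99), which the choice by carriers favours.

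The strongest of them, chr5:49915779-49916435, had a z of 16.7, 28.2, 10.4 and 27.4 in controls and of 44.1, 148, 70.5 and 57.2 in conditioned libraries. Its CPM was 6.56, 1.74, 1.92 and 2.25 against 3.62, 28.98, 4.96 and 2.55, so control replicate 1 lay above 3 conditioned libraries. The log2 fold change of 1.69 became 0.26 without conditioned replicate 2 and 0.88 in the 5 libraries. At chr8:50691689-50692189 the high library was conditioned replicate 3 (15.6 CPM), with 3.96 to 4.07 CPM in the other conditioned libraries and 5.47 CPM in control replicate 1 (log2 fold change 1.52, and 0.73 without conditioned replicate 3). At chr2:121115085-121115721 control replicate 1 had 9.11 CPM and the other controls 1.23 to 3.62 CPM, against 2.73 to 12.5 CPM after conditioning. At chr11:120657282-120657879 control replicate 3 had 6.57 CPM and the other controls 2.41 to 3.01 CPM, against 4.38 to 11.4 CPM. The overlap came from control replicate 1 or 3 in each of these, and at the chromosome 2 region also from control replicate 2. In the 5 libraries their log2 fold changes were 2.42, 1.34 and 1.68, against 1.52, 0.99 and 1.00 in all 8.

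On the control side, the nearest case was chr17:35515056-35515549, carried by all 4 controls (z 38.6, 49.2, 139.9 and 46.3) and by conditioned replicate 3 (z 35.8). Conditioned replicate 4, which carried 637 of the 642, had no listed peak there and only 7 counts. Control replicate 3 had 83.5 CPM, the other controls 3.09 to 8.57 CPM, and conditioned libraries 0.370, 12.5, 1.63 and 0.0418 CPM. The log2 fold change of -2.77 (SE 1.28) became -0.53 without control replicate 3 and 0.055 against control replicates 2 and 4 alone. It was -5.18 without conditioned replicate 2, the only conditioned library above any control, and -2.37 in the 5 libraries.

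Single libraries dominated 24 of the 642 regions (3.74%, beside 1.78% of all regions), in the sense that 1 library held over 50% of the summed CPM. In 13 of them it was conditioned replicate 2 (26.4 to 46.8 CPM), in 8 control replicate 3 (37.3 to 83.5 CPM), in 2 control replicate 4 and in 1 control replicate 1. The dominating library was a carrier in all 24, with a z of at least 89.01. After the region of chromosome 9, the greatest shares were those of control replicate 3 at chr2:35991821-35992448 (77.6%) and chr19:45103153-45103744 (76.0%). At the first it had 60.9 CPM and a z of 141, and the other 7 libraries had 1.76 to 3.93 CPM. At the second it had 57.6 CPM and a z of 119, and the others had 0.715 to 5.84 CPM. The log2 fold changes of -2.53 and -2.43 turned to 0.48 and 0.47 without that library. Each was nonetheless carried by 3 or 4 conditioned libraries, at a z of 33.3 to 89.1.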

How the data were processed

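The labels' protocols describe hippocampus fixed with 2% paraformaldehyde, 1 µg of sheared chromatin per library and a gel slice near 300 bp. The submitters' processing notes name Bowtie2 and mm9. For the peak caller, the counting tool and duplicate or multiply mapped reads, the settings were not given in the sources used here. The authors deposited raw read counts per region (8 columns, 0 unused, lowest count 3), a region table with a mean z score and number of carriers, and a z score per listed peak of each sample (lowest 5). The carriers were recomputed from the peak lists (overlap of at least 1 bp, z of at least 30) and matched in all 11304 regions.

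Counts were tested with edgeR 4.0.16 in R 4.3.3 (quasi-likelihood, TMM factors, filterByExpr, group only, two-sided, Benjamini-Hochberg over all regions), after a check on simulated data. The SE of a log2 fold change is its size over the square root of F. TMM factors ran from 0.332 (control replicate 1) to 2.01 (conditioned replicate 4). No label ties a replicate to a separate animal, so p-values measure the spread between these samples, which may be technical. Reads carry no molecular identifiers, so counts may include copies of 1 molecule.

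Regions and lists were chosen with earlier results of these data known. Named regions are the 8 of highest mean z, the 5 with the smallest p on each side, up to 4 per group carried by all of that group with no carrier (for the controls, at most 1) in the other, the 3 in which 1 library holds the greatest share of CPM, and those at the limits of the rule. Alternatives were other scaling factors, DESeq2 1.42.0, limma 3.58.1 (voom), a replicate block, other count filters, fits without the 50 highest regions or without 1 library, other limits on z, span and overlap, and control replicates 2 and 4 alone. The fit on the libraries left without control replicates 1 and 3 and conditioned replicate 2 (the 5 libraries) and the count of groups that do not overlap in them were added after seeing the data.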

Additional observations from a re-analysis of the deposited data

Results flagged for a closer look

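Over 56 groups of 4 values (24 named regions and 4 measures per library, for each treatment), Dixon's gap test asked whether 1 library stood apart from its 3 fellows, and 16 groups passed. About 1 in 20 groups passes by chance where values are independent. Here the groups share libraries, and some regions were named because 1 library was high.

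Conditioned replicate 2 carried 136 of the narrow strong regions, against 600 to 637 in the other conditioned libraries. It was the highest conditioned library at chr13:104995081-104995516 (2813 CPM, others up to 239), chr14:47407635-47408176 (30.2 CPM, others up to 11.0), chr5:49915779-49916435 (28.98 CPM, others up to 4.96) and chr17:35515056-35515549 (12.5 CPM, others up to 1.63), and the lowest at chr2:57090471-57091021 (3.36 CPM, others from 9.40). Conditioned replicate 3 stood apart at chr8:50691689-50692189, with 15.6 CPM against 3.96 to 4.07.

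Control replicate 3 stood apart at chr17:35515056-35515549 (83.5 CPM, others up to 8.57), chr2:35991821-35992448 (60.9 CPM, others up to 2.37), chr19:45103153-45103744 (57.6 CPM, others up to 3.42) and chr11:120657282-120657879 (6.57 CPM, others up to 3.01). Control replicate 1 did so at chr9:36723485-36723886 (183 CPM, others up to 14.3), chr5:49915779-49916435 (6.56 CPM, others up to 2.25) and chr8:50691689-50692189 (5.47 CPM, others up to 1.75). Control replicate 4 was the high one at chr9:31193535-31193985 (32.8 CPM, others up to 5.92) and chr5:124459577-124460257 (22.95 CPM, others up to 3.45).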

How the results depend on the processing

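The count of 0 narrow strong regions past the adjusted threshold held in all alternatives except DESeq2's Wald test, which called 2 (adjusted p NA for 21); over the other alternatives the smallest adjusted p in the set ranged from 0.131 to 0.989. Over all regions the count was 0 except with region totals alone (6) and DESeq2 (40). Without 1 library both counts stayed between 0 and 0. The 47 narrow strong regions at unadjusted p below 0.05 (7.32%, beside 7.79% of all regions) became 162 with region totals alone (25.2%, beside 10.0%), 30 with a replicate block (4.67%, beside 5.86%), 112 with control replicates 2 and 4 alone (17.4%, beside 8.38%) and 118 with the 5 libraries (18.4%, beside 10.3%). Without 1 library they were 35 (without conditioned replicate 2; 5.45%, beside 4.65%) to 82 (without control replicate 1; 12.8%, beside 9.50%). Some of these shares lay below that of all regions, such as 40 without control replicate 4 (6.23%, beside 10.4%). The median log2 fold change of 0.18 was 0.98 with region totals alone and 0.07 to 0.31 without 1 library; it exceeded that of all regions by 0.12 to 0.34 in every alternative. Stricter or absent count filters kept all regions, so their values are the same by construction.

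Regions with more conditioned than control carriers went from 609 to 186 when strong peaks had to cover 25% of the region, which by construction drops peaks of a single step; with z limits of 20 and 50 they were 518 and 565. The number of narrow strong regions was 1422 with a mean z of at least 50 and 30 with at least 80.

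Of 455 alternative values of the 24 named regions, 431 kept direction and side of the threshold, 4 kept direction with an adjusted p of NA in DESeq2, 2 newly passed (both with DESeq2) and 18 changed sign, none of them past the threshold. Against control replicates 2 and 4 alone the sign changed at chr13:104995081-104995516 (2.84; -0.12 with the 5 libraries), chr9:36723485-36723886 (0.22; -0.062), chr17:35515056-35515549 (0.055; -2.37), chr2:35991821-35992448 (0.61; 0.61 with the 5 libraries) and chr19:45103153-45103744 (1.01; 0.45 with the 5 libraries). Without 1 library the last 2 ranged from -2.93 to 0.48 and from -2.99 to 0.47 (highest without control replicate 3), and chr9:31193535-31193985 from -1.14 to 0.59 (highest without control replicate 4). With region totals alone chr12:55757255-55757777 had 0.022. At chr5:37221493-37221979, whose value of -0.01 has no direction, the values were 0.069 (upper-quartile factors), 0.64 (region totals), 0.030 (5 libraries) and -0.48 to 0.42 without 1 library, with a turned sign without control replicate 2 or conditioned replicate 1, 2 or 4. The cause was not tested.

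Deviations of same-numbered libraries of the groups had correlations of 0.16, 0.05, -0.06 and 0.27 across regions. The titles give the numbers 1, 4, 6 and 9 in both groups. Whether these mark matched samples is not stated, and the correlations cannot decide it. With the replicate block in edgeR, 0 regions passed and 30 narrow strong regions were at unadjusted p below 0.05. The median count of these regions was lowest in control replicate 3 (67.5), and what low counts contribute to the results was not tested.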
